A study of Mus musculus with 4 samples.

Results

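C/D box small nucleolar RNAs were followed through an immunoprecipitation of the RNA-binding protein Cpeb4. Their 65 probe sets were all those whose gene symbol in the array's annotation table starts with Snord, with no requirement on level, among 23185 probe sets with 1 gene symbol and 25206 in all. The RNA came from mouse fetal liver at embryonic day 14.5, from erythroblasts (immature red blood cells) taken with magnetic beads against Ter119, which marks the surface of maturing red cells. It was hybridised to 4 Affymetrix arrays. Of these, 2 were biological replicates of RNA precipitated with an antibody against Cpeb4 (the IP), 1 was RNA precipitated with rabbit IgG and 1 was total input RNA. No genotype, strain or drug was named, and all groups shared the tissue, stage and cell selection. The labels did not say whether the IgG and input arrays came from the same cells as either IP replicate, or whether livers were pooled.

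Box C/D RNAs are short, stable RNAs of the nucleolus. Most pair with ribosomal RNA and place the methyltransferase fibrillarin, with its partners Nop56, Nop58 and Snu13, on the ribose to be methylated. A few act in the cutting of the ribosomal RNA precursor, and some guide methylation of the U6 spliceosomal RNA. In mammals nearly all are cut out of introns of host genes, many of which make ribosomal proteins or noncoding RNAs known mainly for the small RNAs they carry. Cpeb4 binds cytoplasmic polyadenylation elements of mRNAs, and the study asked which RNAs came down with it. The C/D RNAs are a mostly nuclear class without a poly(A) tail.

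The erythroid label was borne out by 8 measured erythroblast markers, whose values had a median percentile from 98.4 to 99.5 among named probe sets on each array. Markers of other cell types had lower median percentiles, and their values were not alike on the arrays. Of 6 neutrophil, 5 megakaryocyte, 6 macrophage and 5 hepatocyte markers measured, 6, 5, 5 and 4 were tested. In the IP 5, 4, 3 and 3 of these rose over input and none fell (limma with an adjusted p below 0.05, the test described next). Against IgG 3 of each of these lists rose and 1 macrophage marker fell. Of the 8 erythroblast markers 4 fell against input and 1 against IgG. Over all tested genes 36.1% rose and 21.2% fell against IgG, and 10.2% rose and 15.9% fell against input. The median level of the neutrophil markers was 5.73 in input, 6.35 in IgG, and 7.53 and 7.55 in the IP, and that of the macrophage markers 4.14, 4.87, 5.39 and 5.68 in the same order. Any part of such cell types in the results on the C/D RNAs was not tested. As the arrays measured bulk RNA, fewer cells of a type and less RNA per cell cannot be told apart. Between a precipitate and another array, neither can be told apart from a difference in what was precipitated. The normalized values are relative to all other RNA on the array.

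All values are the deposited ones, in log2 units, as are all differences, and a probe set at least 2-fold from a control in both IP replicates was counted by size. The limma test covered named genes in the upper part of the range, with a mean level at or above 3.84 (the 40th percentile). It took in 13911 genes and 54 of the 65 C/D RNAs, while 11 lay below that level. "Rose" and "fell" are used of genes with a Benjamini-Hochberg adjusted p below 0.05 over all tested genes. Since the 2 IP arrays were the only replicates, the test assumes that each single control array varies as they do. Probes differ in how strongly they respond, so an array value does not rank one RNA's abundance against another's.

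The C/D RNAs took one order across the arrays. They were highest in the IgG precipitate, lower in input and lowest in the Cpeb4 IP. This order, IgG above input above both IP replicates, was met by 43 of the 65, against 7.06% of all named probe sets. The IgG array was the highest of the 4 for 53 of them, against 45.6% of all, and both IP replicates lay below both controls for 54, against 11.2%. The order was IgG, IP, input for 8 members and input, IgG, IP for 9, and 5 followed none of these. The median value of the 65 was 8.12 in IgG, 6.27 in input, and 5.11 and 4.99 in IP replicates 1 and 2. Seen as places within each array, which a change of scale leaves alone, the members had a median percentile of 95.4 in IgG, 74.4 in input, and 63.6 and 62.0 in the IP replicates.

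**Figure D1:**
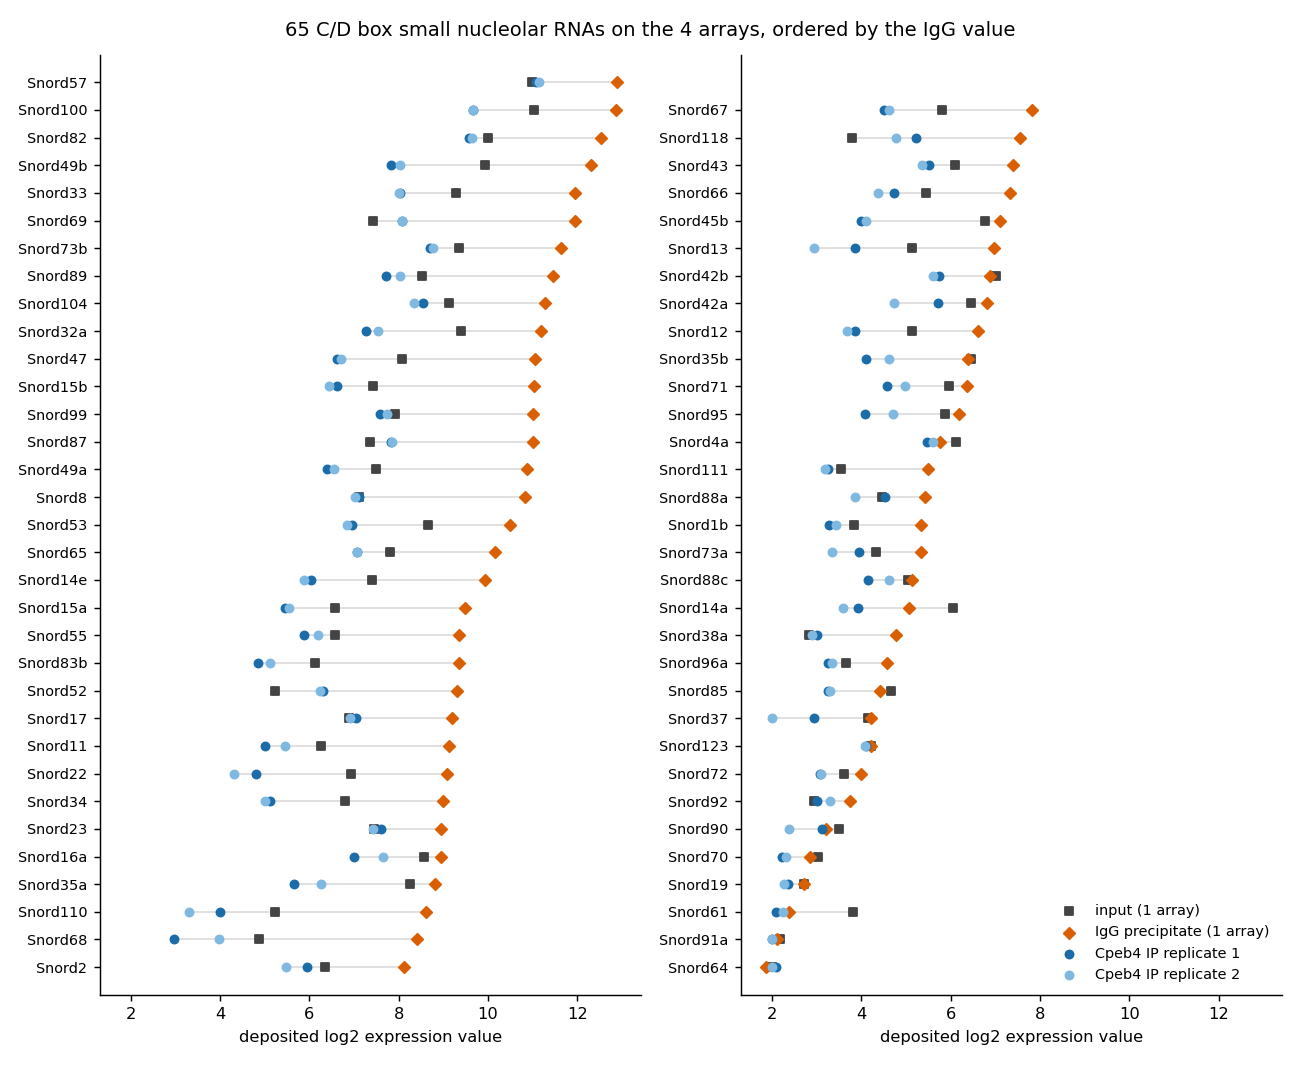
Deposited log2 expression value (x axis) of each of the 65 C/D box RNAs (rows, ordered by the IgG value) on the input array (grey squares), the IgG array (orange diamonds) and the 2 Cpeb4 IP arrays (dark and light blue circles), with a grey line over the range. In 53 rows the IgG diamond is farthest to the right, and in 54 rows both IP circles lie left of both controls.

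Against IgG, the IP held less of nearly every C/D RNA. Both replicates were below IgG for 64 of the 65 members, against 49.7% of all named probe sets, and 53 were at least 2-fold lower in both, against 6.07%. No member was at least 2-fold higher, against 11.2%, and 37 were at least 4-fold lower in both, against 0.638%. The median difference was -2.58 in replicate 1 and -2.78 in replicate 2, beside -0.06 and -0.07 over all named probe sets. Of the 54 tested, 51 fell (limma adjusted p = 0.00159 to 0.039), against 21.2% of tested genes, and 0 rose, against 36.1%. At an unadjusted p below 0.05 the count of risers was 0 too, and it was 0 in each other test run on the values as deposited. The count that fell was 36 with limma's usual prior, which includes genes tied between the IP arrays, and 28 with its trend and robust options. Among the members described singly, Snord110, Snord68, Snord118, Snord13, Snord14a and Snord35a lost their call against IgG under both (limma adjusted p = 0.0584 to 0.107 and 0.091 to 0.15), and Snord22 under the latter (limma adjusted p = 0.0738). Among the 50 named probe sets with the lowest IP minus IgG difference, 24 were C/D RNAs, 15 were H/ACA or Cajal body RNAs and 3 were microRNA genes.

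The largest difference from IgG was that of Snord110, which lies within Nop56. Its values were 5.23 in input, 8.60 in IgG, and 4.004 and 3.30 in the IP replicates. IgG stood far above the rest, and the IP was 31.0-fold below it (difference -4.95, SE 0.32, limma adjusted p = 0.00175). Snord68, within the ribosomal protein gene Rpl13, had 4.86 in input, 8.40 in IgG, and 2.97 and 3.98 in the IP. Its replicates were 1.01 apart, the widest gap among the members, yet both were below input and far below IgG (-4.93, SE 0.45, limma adjusted p = 0.00264).

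Snord15b, within Rps3, had 7.42 in input, 11.02 in IgG, and 6.62 and 6.43 in the IP. It was 22.5-fold lower in the IP than in IgG and 12.1-fold higher in IgG than in input. Its near copy Snord15a, from the same gene, had 6.58 in input, 9.49 in IgG, and 5.46 and 5.55 in the IP. Both had the order IgG, input, IP, and near copies may share probe signal. Snord83b, within Rpl3, had 6.13 in input, 9.35 in IgG, and 4.86 and 5.11 in the IP, which was 20.5-fold below IgG.

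Snord49a and Snord49b lie within the noncoding gene 2410006H16Rik. Snord49b had 9.93 in input, 12.31 in IgG, and 7.82 and 8.04 in the IP. The arrays were well apart, with the IP 20.9-fold below IgG and 3.99-fold below input. Snord49a had 7.49 in input, 10.87 in IgG, and 6.40 and 6.54 in the IP, the same order with a smaller step from input to the IP (-1.02). Among the 10 largest differences from IgG were also Snord22, Snord47, Snord15a and Snord14e, described with their roles and hosts.

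At the other end, 3 tested members did not pass against IgG. Snord4a, within Rpl23a, had 6.11 in input, 5.76 in IgG, and 5.46 and 5.59 in the IP (-0.23, SE 0.13, limma adjusted p = 0.209). Snord123, within Snhg18, had 4.22 in both controls and 4.10 and 4.09 in the IP (-0.12, SE 0.12, limma adjusted p = 0.445). Quantile normalization of the 4 arrays again turned its difference to 0.23, which then passed (limma adjusted p = 0.0488). Snord88c, within 2410002F23Rik, had 5.05 in input, 5.13 in IgG, and 4.14 and 4.63 in the IP (-0.75, SE 0.24, limma adjusted p = 0.0581). All 3 thus had IP values close to or under both controls as deposited.

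The 11 members under the level for testing had values from 1.86 to 4.78 on all arrays. They were Snord38a, Snord37, Snord96a, Snord72, Snord92, Snord70, Snord90, Snord19, Snord61, Snord91a and Snord64. By size 3 of them were at least 2-fold below IgG in both replicates. Snord38a was one, with 4.78 in IgG against 2.83 in input and 3.01 and 2.90 in the IP. Snord91a had 2.19 in input, 2.11 in IgG, and 1.99 and 2.00 in the IP, and its small difference from IgG changed sign after quantile normalization again. Snord64, the only measured RNA listed for the imprinted Snrpn region, whose small RNAs are made mainly in neurons (none was measured of those listed for the imprinted Dlk1-Dio3 region), was the only member above IgG, with 1.86 in IgG, 1.99 in input, and 2.09 and 1.99 in the IP. These values were among the lowest of each array, at percentiles 0.462 to 3.02.

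Against input the IP differed less, and not always in one direction. Both replicates were below input for 54 members, against 28.2% of all named probe sets, and above it for 8, against 33.5%. By size 24 were at least 2-fold lower in both replicates, against 3.27%, 3 were at least 4-fold lower, against 0.194%, and 1 was at least 2-fold higher, against 2.49%. The median difference was -0.80 in replicate 1 and -0.89 in replicate 2, beside 0.00 in each over all named probe sets. Of the 54 tested, 31 fell (limma adjusted p = 0.00905 to 0.0431), against 15.9% of tested genes, and 3 rose, against 10.2%. The count that fell was 8 with limma's usual prior, 4 with trend and robust, and 18 after quantile normalization again. The falls of Snord45b, Snord47, Snord53 and Snord34 were among those that still passed with the usual prior, and with trend and robust these 4 did not (limma adjusted p = 0.0521 to 0.0762).

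Snord45b, within Rabggtb, had the largest fall against input. It had 6.78 in input, 7.10 in IgG, and 3.99 and 4.11 in the IP. Here the 2 controls were alike, and the IP was 6.60-fold below input (difference -2.72, SE 0.13, limma adjusted p = 0.00905) and 8.25-fold below IgG. Snord35a, within Rpl13a, shared this form. Snord35a had 8.26 in input, 8.80 in IgG, and 5.65 and 6.26 in the IP, which was 4.94-fold below input. In these 2 members IgG and input differed by at most 0.55, so the low values were on the IP arrays.

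Other members with large falls against input were Snord22, Snord14a, Snord49b, Snord32a, Snord53 and Snord34. Snord32a had 9.38 in input, 11.20 in IgG, and 7.27 and 7.52 in the IP, and fell by 1.98 from input. Snord53, within Wdr43, had 8.65 in input, 10.50 in IgG, and 6.95 and 6.84 in the IP, and fell by 1.76. Snord34 had 6.80 in input, 8.998 in IgG, and 5.11 and 4.99 in the IP, and fell by 1.74. For these last 3, Snord32a, Snord53 and Snord34, input lay between IgG and the IP.

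Against input 3 members rose, Snord118, Snord52 and Snord69. With trend and robust 1 of them, Snord69, still passed. Its 2 IP values were equal and that prior was very small (SD 0.00145), so this pass is no sign of a firmer result. Snord118 was also lost with the usual prior (limma adjusted p = 0.216) and after quantile normalization again (limma adjusted p = 0.108). Snord52, within the noncoding gene 1110038B12Rik, had 5.23 in input, 9.31 in IgG, and 6.31 and 6.23 in the IP. It was 2.06-fold above input in the IP (1.04, SE 0.12, limma adjusted p = 0.0126) and still 8.22-fold below IgG. Snord69, within the nucleolar GTPase gene Gnl3, had 7.42 in input, 11.94 in IgG, and 8.07 in both IP replicates, where it was 1.57-fold above input (limma adjusted p = 0.0273) and 14.6-fold below IgG. It was the 1 member with equal values on both IP arrays, where 23.9% of all named probe sets had such ties. Snord87, within Snhg6, had 7.35 in input, 11.01 in IgG, and 7.83 and 7.85 in the IP, and the 0.49 by which it exceeded input was not called (limma adjusted p = 0.0512). Snord92, within Wdr43 and below the level for testing, followed with 2.93 in input, 3.74 in IgG, and 2.997 and 3.31 in the IP. Snord118, Snord52, Snord69 and Snord87 had IP values above input and far below IgG, and 3 of them had the largest IgG minus input differences of all members.

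Set against both controls at once, 23 members were at least 2-fold lower than IgG and than input in both IP replicates, against 0.323% of all named probe sets. These 23 are a large part of the 75 probe sets of the whole array that met this rule. At least 4-fold lower than both were 2 members, against 0.0604%, and no member was at least 2-fold higher than both, against 1.5%. The rules on the separate controls share the IP arrays.

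**Figure D2:**
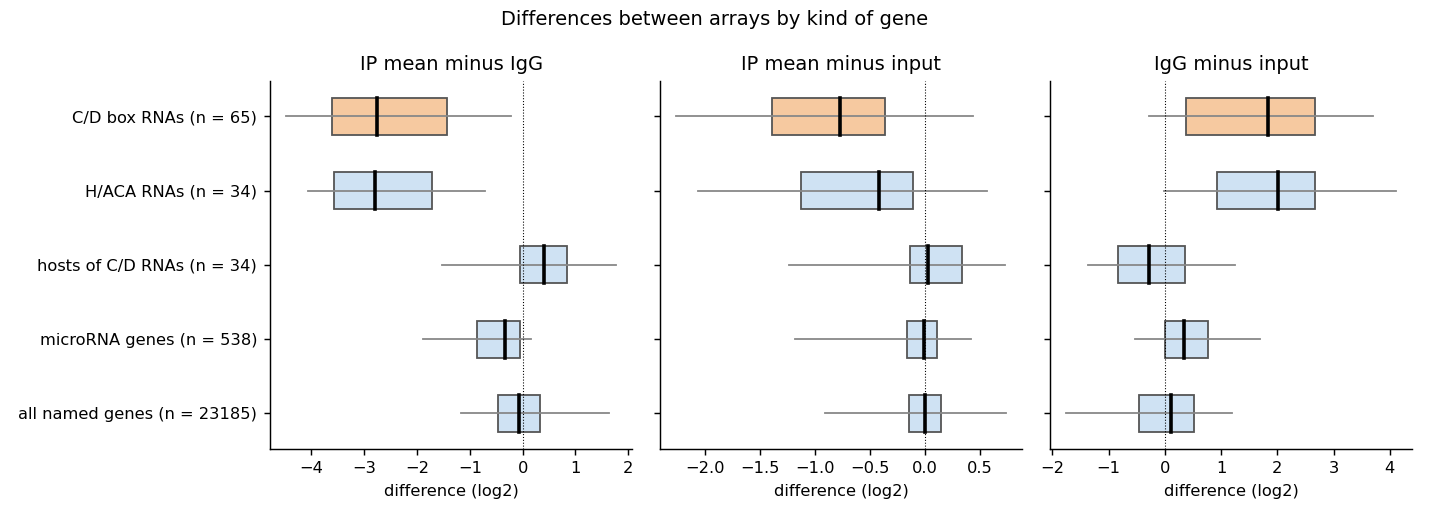
Differences between arrays (x axes, log2) for the C/D box RNAs, H/ACA RNAs, host transcripts of the C/D RNAs, microRNA genes and all named genes, with the number of probe sets beside each name. Boxes span the 25th to 75th percentile, black bars are medians and lines run from the 5th to the 95th percentile. The C/D box RNAs have medians of -2.76, -0.77 and 1.84 in IP minus IgG, IP minus input and IgG minus input, where all named genes have -0.08, 0.00 and 0.11.

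The single IgG array held more of the C/D RNAs than the input array did. IgG was above input for 53 of 65 members, against 57.0% of all named probe sets. At least 2-fold above input were 41 members, against 7.99%, and at least 4-fold above were 26, against 0.802%. At least 2-fold below input were 2 members, Snord61 (-1.44) and Snord14a (-1.002), against 14.6%. The median difference was 1.84, beside 0.11 for all named probe sets. With 1 array each there is no replicate check of this comparison. The excess in IgG was not particular to the C/D RNAs, as the H/ACA RNAs had a median of 2.01.

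The highest IgG minus input differences were those of Snord69 (4.51), Snord52 (4.08), Snord118 (3.77), Snord8 (3.72) and Snord87 (3.66). Near the lower end, beside Snord61 and Snord14a, were Snord4a (-0.36) and Snord90 (-0.29). Snord61, within Rbmx, had 3.81 in input against 2.37 in IgG and 2.08 and 2.25 in the IP. It was thus low on all 3 precipitate arrays.

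The members with the highest array values in input kept the same order, with 1 exception. Snord100, within Rps12, had 11.03 in input, 12.87 in IgG, and 9.65 and 9.66 in the IP. Snord57, within Nop56, had 10.97 in input, 12.88 in IgG, and 11.07 and 11.14 in the IP. Snord57 was thus the exception, at the level of input in the IP (0.13, SE 0.12, limma adjusted p = 0.552) and 3.41-fold below IgG. Snord82, within the nucleolin gene Ncl, had 9.99 in input, 12.53 in IgG, and 9.56 and 9.64 in the IP.

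The IP replicates were less alike in the C/D RNAs than over all named probe sets, of which 23.9% were tied, beside 1.54% of members. Wide gaps were not particular to C/D RNAs, as the H/ACA RNA Snora68 had IP values of 6.04 and 4.63. The difference between IP replicates had an SD of 0.385 over the 65 members, beside 0.221 over all named probe sets. In 12 members (18.5%) the replicates were more than 0.5 apart, beside 4.33%. Replicate 2 was the higher in 34 members and replicate 1 in 30, so neither was shifted as a whole. Members with such gaps had the larger standard errors, up to 0.45, where those with the closest replicates had 0.12. Over tested members the SD of that difference was 0.387, beside 0.216 over all tested genes. The prior spread was estimated over all untied tested genes, so the members' standard errors and adjusted p may be too small.

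Of the C/D RNAs known to act in processing of the ribosomal RNA precursor, 5 were measured, and all 5 fell against IgG. Snord22 (U22), needed for the small-subunit RNA and made from an intron of Snhg1, had 6.93 in input, 9.07 in IgG, and 4.81 and 4.31 in the IP. It was 22.8-fold below IgG (limma adjusted p = 0.00159) and 5.18-fold below input (limma adjusted p = 0.0109). The call against input was lost with the usual prior (limma adjusted p = 0.128) and after quantile normalization again (limma adjusted p = 0.062). Snord118 (U8), needed for the large-subunit RNAs and transcribed from its own gene, had 3.78 in input, 7.56 in IgG, and 5.22 and 4.78 in the IP. It went against Snord22 with respect to input, 2.32-fold above it (limma adjusted p = 0.0283), and was 5.90-fold below IgG. The input value of Snord118 lay under the 3.84 that the mean level had to reach for testing. Its rise over input was also not called with the usual prior, with trend and robust, or after quantile normalization again.

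Snord13 (U13), which also acts on the small-subunit RNA and has its own promoter, had 5.13 in input, 6.98 in IgG, and 3.86 and 2.93 in the IP. Both replicates were lowest, with a gap of nearly 1 between them, and against input the -1.74 was not called (SE 0.42, limma adjusted p = 0.0515). U14 is needed for the small-subunit RNA too, and 2 of its genes were measured. Snord14e, within the chaperone gene Hspa8, had 7.40 in input, 9.93 in IgG, and 6.03 and 5.88 in the IP. Snord14a, within Rps13, had 6.06 in input, 5.06 in IgG, and 3.92 and 3.58 in the IP. Both fell against both controls, but Snord14a was higher in input than in IgG and Snord14e the reverse, although the RNAs are close copies whose signals may not be separate.

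The U6 guides measured were Snord8 and Snord67. Snord67, within Ckap5, had 5.82 in input, 7.81 in IgG, and 4.51 and 4.61 in the IP, 9.52-fold below IgG and 2.38-fold below input. Snord8 had 7.12 in input, 10.84 in IgG, and 7.11 and 7.01 in the IP. It was 13.7-fold below IgG and at the level of input (-0.06, SE 0.12, limma adjusted p = 0.869), a difference that turned positive after quantile normalization again.

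RefSeq gene models (assembly GRCm38.p6, matched by gene number for 65 of 65) placed 21 members within ribosomal protein genes, 25 within other protein genes and 13 within noncoding genes. For 3 members several genes contained the RNA and for 3 none did. Over all tested genes 21.2% fell against IgG, and 15.9% fell and 10.2% rose against input. Of the 19 tested members within ribosomal protein genes, 18 fell against IgG, 14 fell against input and 0 rose. Of 18 within other protein genes, 17 fell against IgG, 9 fell against input and 1 rose. Of 12 within noncoding genes, 11 fell against IgG, 7 fell against input and 1 rose. The median differences from IgG were -2.85, -1.79 and -3.09 over all members of these classes, whose differences from each other were not tested. The classes also differed in level, with median input values of 6.58, 5.46 and 7.35 in the same order. Over the 65 members, those with higher input values had lower IP minus IgG differences (rank correlation rho = -0.58). Any part of level in the class medians was not tested.

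Host transcripts did not have the low IP values of their small RNAs. A probe set for the containing transcript was present for 46 members with 34 hosts. In 42 of the 46 pairs the IP minus IgG difference was lower for the C/D RNA than for its host, in 39 of them by more than 1. Host transcripts had a median IP minus IgG difference of 0.41, and 17 of the 30 tested rose and 5 fell, beside 36.1% and 21.2% of all tested genes. In IgG minus input the C/D RNA was above its host in 38 pairs, and the hosts had a median of -0.28. Across the 46 pairs the members' and hosts' IP minus IgG differences had r = 0.02 (rho = 0.03), on the same arrays and with some hosts counted more than once.

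**Figure D3:**
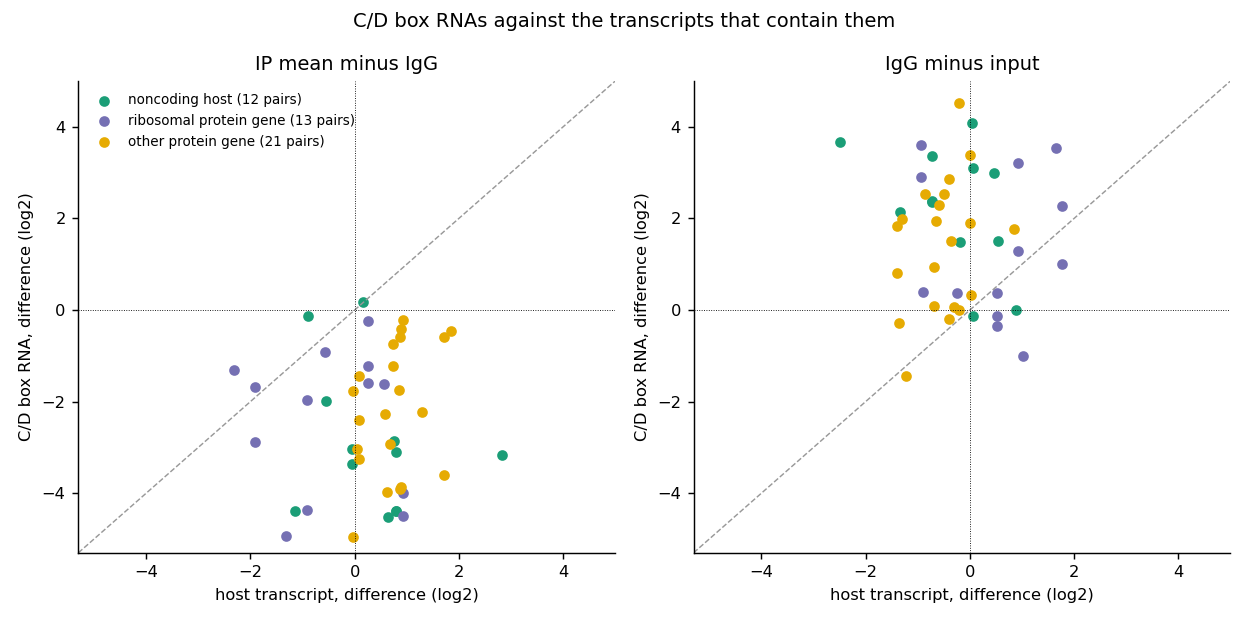
Difference of the host transcript (x axis, log2) and of the C/D box RNA within it (y axis, log2) for 46 pairs, in IP mean minus IgG (left) and IgG minus input (right), coloured by kind of host, with a dashed line where both are equal. In 42 pairs on the left the point lies below the line, and in 38 on the right above it.

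Single hosts show the contrast. Snord47 is one of the small RNAs of Gas5, a noncoding host gene, and had 8.06 in input, 11.05 in IgG, and 6.61 and 6.70 in the IP. Gas5 itself had 8.18 in input, 8.63 in IgG, and 7.56 and 7.41 in the IP. Both went the same way, by -4.39 for Snord47 and -1.15 for Gas5 against IgG. Snhg1, the host of Snord22, had 10.98 in input, 9.64 in IgG, and 10.19 and 10.36 in the IP. It rose by 0.64 over IgG, where Snord22 fell by 4.51. Snhg6, the host of Snord87, had 6.62 in input, 4.12 in IgG, and 6.99 and 6.90 in the IP, and so was lowest where Snord87 was highest.

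Of 9 noncoding host genes of small nucleolar RNAs on the array, listed whether or not their own C/D RNAs were, 3 rose and Gas5 fell against IgG, and Snhg5 (0.83) rose while Gas5 (-0.69) and Snhg1 (-0.71) fell against input. Over all tested genes 36.1% rose and 21.2% fell against IgG and 10.2% rose and 15.9% fell against input, so these counts were near the background. Against IgG Snhg3 rose by 0.78 and Snhg4 differed by -0.17.

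Among protein-coding hosts, Nop56 had 9.66 in both controls and 9.66 and 9.61 in the IP, while Snord110 within it fell by 4.95 against IgG. Rps3 had 8.51 in input, 7.58 in IgG, and 8.51 in both IP replicates, and was thus lowest in IgG, where its Snord15b was highest. Among the 4 pairs in which the host was the lower were those of Rps13 and Rps3a1. Rps13 had 5.74 in input, 6.76 in IgG, and 3.83 and 5.07 in the IP, a larger difference from IgG (-2.31) than that of its Snord14a (-1.31). Rps3a1 differed by -1.92 from IgG, beside -1.68 for its Snord73a, while its Snord73b, at -2.88, was lower than the host.

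RNAs from the same host gene often had unlike measured differences from IgG. There were 13 containing genes with more than 1 member, holding 30 members, and in 10 of them the members' IP minus IgG differences spread over more than 1. Gnl3 had the widest spread, 3.46, between Snord69 (-3.87) and Snord19 (-0.41), whose values lay between 2.27 and 2.72 on all arrays. Nop58 (Snord11 and Snord70) had a spread of 3.32, Nop56 (Snord110 and Snord57) of 3.18 and Wdr43 (Snord53 and Snord92) of 3.01. The 2 members within Rpl3 had differences from IgG of -4.36 for Snord83b and -1.96 for Snord43. Within Rpl13a, Snord32a, Snord33, Snord34 and Snord35a had differences from IgG between -3.94 and -2.85.

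**Figure D4:**
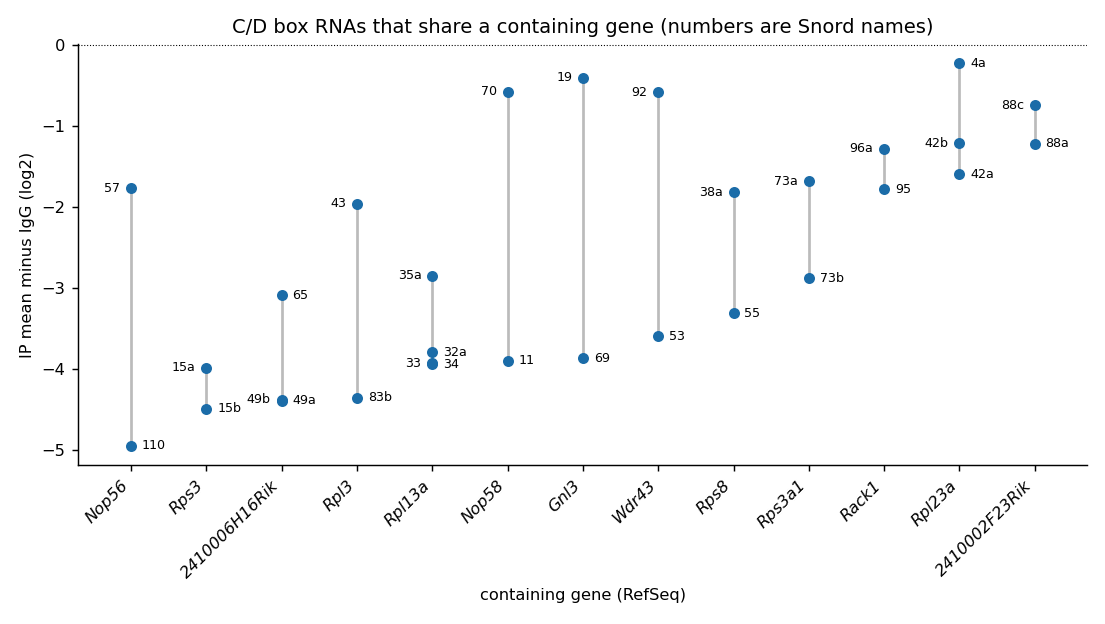
IP mean minus IgG difference (y axis, log2) of the 30 C/D box RNAs that share a containing gene with another (x axis, 13 genes), with a grey line over each gene's range and the Snord number beside each point. The ranges are widest for Gnl3 (3.46), Nop58 (3.32) and Nop56 (3.18), and all points lie below 0. Snord19 (Gnl3) and Snord70 (Nop58) were below the level for testing.

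The mRNAs of the proteins that act with C/D RNAs were also on the array. Of 4 measured core proteins, 2 rose and none fell against IgG, beside 36.1% and 21.2% of all tested genes, and 1 fell and none rose against input, beside 15.9% and 10.2%. Fibrillarin (Fbl) had 7.14 in input, 6.05 in IgG, and 6.07 and 6.36 in the IP, and fell by 0.93 from input (limma adjusted p = 0.0283). Nop58 rose by 0.88 over IgG, Rrp9, a protein of the U3 particle, rose by 0.91, and Nop56 differed by -0.02. Of 16 genes of assembly and maturation, set against the same shares, 10 rose and 1 fell against IgG, and 6 fell and none rose against input. Tgs1, which makes the cap of U3 and U8, rose by 2.57 over IgG and Nufip1, an assembly factor, by 2.09. Nolc1, a nucleolar chaperone of these particles, fell by 0.76 from IgG, and Znhit3, an assembly factor, differed by -0.41, which was not called. Against input Pih1d1, an assembly cofactor, fell by 1.24 and Znhit3 fell by 1.11, while Ncbp1 (0.37) and Ruvbl1 (0.24) were the highest and did not pass.

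Other small nuclear RNAs were also low against IgG. H/ACA RNAs, which guide pseudouridine formation, had a median difference of -2.80 from IgG over 34 probe sets, and 27 were at least 2-fold lower in both replicates, beside 6.07% of all named probe sets. Against input their median was -0.42 and 8 were at least 2-fold lower, beside 3.27% of all. For the C/D RNAs they were -0.77 and 24 of 65, a contrast that was not tested. In IgG minus input the H/ACA median was 2.01 and 25 of 34 were at least 2-fold higher, beside 7.99% of all. The C/D RNAs had 1.84 and 41 of 65 there, also not tested. Cajal body RNAs had 5 of 8 at least 2-fold below IgG, and 5 of 8 at least 2-fold higher in IgG than in input. Of 538 microRNA genes, most at low values, 90 (16.7%) were at least 2-fold below IgG, with a median difference of -0.34.

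Among 12 other nuclear or small noncoding RNAs, 8 of the 10 tested fell against IgG, and against input 3 rose and 3 fell. Over all tested genes 21.2% fell against IgG, and 10.2% rose and 15.9% fell against input. Rprl2, an RNase P RNA-like gene, was lowest against IgG (-3.08), followed by Terc, the telomerase RNA (-2.98). Malat1, a long nuclear RNA, differed by -0.16 from IgG and did not pass, and Rnu7, the histone pre-mRNA processing RNA (-0.19), was below the level for testing. Against input Terc fell by 3.78 and Rny1, a Y RNA, fell by 2.06, while Rpph1, the RNase P RNA, rose by 1.65 and Neat1, a nuclear scaffold RNA, by 0.89. Of the 12, 6 were at least 2-fold higher in IgG than in input, beside 7.99% of all named probe sets. Among these 6 were the 2 RNase P-related RNAs, with IgG minus input differences of 3.21 for Rprl2 and 3.85 for Rpph1. Terc was lower in IgG than in input (-0.80).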

How the data were processed

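Each array's deposited file gives a log2 expression value for every probe set. The submitters' processing notes list RMA and affy. Versions and settings were not given in the sources used here. The number and place of the probes behind each small RNA, and the array's probe definition, were also not given in the sources used here. Probe set names are Entrez gene numbers. GEO's platform annotation, which can be old, supplied the symbols, and 2021 probe sets without one were left out of counts.

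The 4 arrays were grouped by title. Differences were fitted with limma 3.58.1 in R 4.3.3 (3 groups, 1 residual degree of freedom, all 13911 genes at or above the 40th percentile of mean level). Earlier results showed that 23.9% of named probe sets are tied between the IP arrays (within 1e-09), which shrinks limma's usual prior spread. The prior was therefore estimated over untied genes (SD 0.11, 3.07 degrees of freedom) and applied to all. The script was run on simulated data with such ties. The simulation gave every gene and array the same spread, taken from the IP replicates. It therefore could not test how single control arrays vary or how genes differ in spread. Replicates were labelled biological. The members, gene lists and tests were chosen with earlier results of these data known. Alternatives were other priors, filters, folds, a common spread, renormalization and leaving out each IP array. Named genes were the 10 largest falls and 5 largest rises against each control, the 5 extremes of IgG against input and the 5 highest in input. To these came the listed processing, U6-guide, Gas5, Snhg1 and core protein genes, and the 2 highest and lowest of each other list. RefSeq gene models were used for which gene contains which. Sequences of the C/D RNAs were not used here. Some members that the naming rule selects are not reported here by name.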

Additional observations from a re-analysis of the deposited data

How the results depend on the processing

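In every alternative run more members were lower than higher in the IP, against IgG and against input. Single members changed sign, and the count that fell against input by limma ranged from 4 to 42. Single control arrays set the limit: nothing here measures how an IgG or input array would vary. Quantile normalization of the 4 arrays again moved the median of all named probe sets by 0.11 in IP minus IgG and by -0.13 in IgG minus input. It gave member medians of -3.00 and 2.11 there, and 1 riser against IgG, Snord123 (0.23 in place of -0.12), for which the cause was not tested. It changed the sign of IP minus IgG for 2 members (Snord123 and Snord91a), of IP minus input for 2 (Snord8 and Snord64) and of IgG minus input for 7, Snord35b, Snord37, Snord42b, Snord72, Snord19, Snord4a and Snord123, and left 18 falls, 0 members 2-fold above input and 1 member 2-fold lower in IgG than in input. With limma's usual prior 8 members fell against input. With trend and robust 28 fell against IgG, and 4 fell and 1 rose against input. Both priors include the tied genes. At 4-fold, 3 members were lower and 0 higher than input, 2 lower than both controls, and 26 higher and 0 lower in IgG than in input. At 1.5-fold 3 were higher than input. Over tested members alone the medians were -2.98 from IgG, -1.03 from input and 1.97 for IgG minus input, and 1 was 2-fold lower in IgG than in input. Without IP replicate 1 or 2 the medians were -2.58 to -2.78 from IgG and -0.80 to -0.89 from input. The counts then were 53 to 54 lower than IgG, 27 to 29 lower and 1 to 2 higher than input, and 25 to 28 lower than both. Such fits have no residual degrees of freedom, so no test was made. Of the values of 27 named members under these alternatives, 247 kept their side of the threshold, 59 no longer passed, 9 passed only there and 1 (Snord123) reversed. No paired analysis was possible because only the IP has replicate numbers.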
